A study of Mus musculus with 16 samples.

Results

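The mTOR kinase sits in a pair of protein complexes that pass signals from growth factors, amino acids and energy state to protein synthesis. In mTORC1, where the kinase is held by Raptor (Rptor), it phosphorylates S6 kinase (Rps6kb1) and the 4E-binding proteins (Eif4ebp1, Eif4ebp2), which in their unphosphorylated form hold the cap-binding factor eIF4E away from the ribosome. Rheb switches mTORC1 on, the Tsc1 and Tsc2 complex switches Rheb off, and Akt1, itself a substrate of the Rictor-containing mTORC2, inhibits Tsc2. In skeletal muscle the pathway is known for its part in the growth response to feeding, insulin and loading.

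The 10 genes Mtor, Rptor, Rictor, Tsc1, Tsc2, Rheb, Rps6kb1, Eif4ebp1, Eif4ebp2 and Akt1 were described as a set, each through every array probe that carries its symbol. They are 10 of the 34650 gene names on the array. They had 16 of the 55681 probes that were not controls, and all 10 genes had at least 1 probe bright enough to test. Of the 16 probes, 12 were among the 19814 tested, a probe being tested where it was well above background on all arrays of at least 1 group. The 4 untested probes were another Mtor probe, another Rheb probe and a pair of Rps6kb1 probes, of which only the levels of the Mtor probe are given below. Each gene is represented by its leading probe, the tested probe with the highest mean signal.

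The study asked whether the loss of 1 copy of Eif6, a factor that keeps the large ribosomal subunit from joining the small subunit, changes which mRNAs are on ribosomes in mouse gastrocnemius, the calf muscle. It compared heterozygous mutants (Eif6+/-, here Het) with wild-type mice (Eif6+/+, here WT), males of the C57BL6 background and littermates by the methods, aged 8 to 16 weeks and fed ordinary chow, with 3 mice per genotype. RNA from whole muscle, from polysomes (mRNAs carrying several ribosomes) and from monosomes (single ribosomes) of a sucrose gradient was hybridized to 1-colour Agilent arrays. There were 3 arrays each for whole muscle and polysomes in each genotype and 2 each for monosomes, 16 in all. The mutation is carried in all tissues of the mouse, and the fractions came from a whole muscle, so that fewer cells of a type and less RNA per cell could not be told apart.

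Signals are given as normalized log2 units, in which a difference of 1 is a doubling. Equal amounts of labelled RNA were the starting point and the arrays were scaled to a common distribution, so that a value is a share of the RNA in its fraction and not an amount. The arrays were dim, with 23.5 to 45.9% of spots well above background and none saturated. Eif6 itself was 0.92 ± 0.25 (SE, n = 3) log2 units lower in Het than in WT whole muscle, 1.31 ± 0.25 lower in polysomes and 1.82 ± 0.35 (n = 2) lower in monosomes, with adjusted p of 0.36, 0.193 and 0.0451 in limma, and the groups did not overlap in whole muscle or polysomes. All 7 of 7 skeletal muscle markers were at or above the 95.53 percentile on every array, among the 20251 probes bright enough to test over all 16 arrays. The WT polysome 2 and WT monosome 2 arrays stood apart. On these 2 arrays the probe nearer the transcript's 5′ end was brighter than its partner nearer the 3′ end by a median of 0.19 and 0.30 over 1648 probe pairs, against −1.20 to −0.81 on the other 14.

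Because mTORC1 is best known for the translation of mRNAs that begin with a terminal oligopyrimidine (TOP) tract, the start sites of the genes were read from RefSeq. It held 10 annotated starts for 9 of the 10 genes (GRCm38.p6), Eif4ebp1 having no entry. None of these 10 began with C followed by 4 bases that were each C or T on the transcribed strand, as 2.51% of all 32851 annotated starts did and 19.0% of the 63 starts of ribosomal protein genes. The lines below give 15 bases before and 15 from the annotated start, 5′ to 3′, for the genes on which the results turn and for Rps6, the ribosomal protein that S6 kinase phosphorylates, with the first 5 transcribed bases in capitals.
Mtor, chr4:148448567-148448596, plus strand: cccgccctccccaccTCCCTggcctagaag
Rptor, chr11:119602890-119602919, plus strand: ggcgtgggggaagggAGGACggaacaccga
Tsc1, chr2:28641218-28641247, plus strand: gagacgcttcacgccAGGGGgaggtgctgc
Rheb, chr5:24842347-24842376, minus strand: gcgagcgagaggcagCCGCGcccgccgccg
Eif4ebp2, chr10:61452655-61452684, minus strand: ggtatcgcagcgggaCGACCgggcgagagc
Rps6, chr4:86857353-86857382, minus strand: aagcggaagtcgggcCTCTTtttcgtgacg
The annotated Mtor start opened with 5 pyrimidines of which the first was T, and that of Rps6 with 9. An annotated start can lie some bases from the one used in muscle, and these letters say nothing of how an mRNA is translated.

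In whole muscle RNA no gene of the set differed between the genotypes by the tests used. None of the 12 member probes passed an adjusted p of 0.05 in limma, where 0.0101% of all tested probes did. None passed the study's threshold, an absolute log2 difference above 1 with an unadjusted p under 0.05, which 5.63% of all probes met, and none had an unadjusted p under 0.05, against 8.45% of all. The methods' t-test on the same values also called none, where it put 2.07% of all probes past the study's threshold and 6.25% under an unadjusted 0.05. The 10 leading probes ran from −0.53 for Akt1 to 0.96 for Tsc2, with 4 above and 6 below 0, and their median of −0.03 was that of all probes, also −0.03. The genotypes did not overlap for 1 of the 12 probes, a second probe of Rps6kb1, against 13.5% of all probes, and they overlapped for all 10 leading probes.

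Tsc2, the GTPase-activating partner of Tsc1, had a whole muscle difference of 0.96 ± 0.49 (adjusted p = 0.626), which was 0.27 without Het mouse 2. Its signals were 3.38, 4.02 and 3.52 in WT and 3.72, 5.99 and 4.09 in Het, and the Het value of mouse 2 was the highest of the 6. The probe was well above background on 2 of 3 WT and 1 of 3 Het whole muscle arrays.

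Akt1, the kinase upstream of Tsc2, and Eif4ebp1 had differences below 0 that did not pass a test. Akt1 read 10.16, 9.31 and 9.32 in WT whole muscle and 9.36, 9.07 and 8.78 in Het whole muscle, a difference of −0.53 ± 0.29 (adjusted p = 0.661). Eif4ebp1 read 10.97, 10.50 and 10.36 in WT and 10.22, 9.88 and 10.45 in Het, a difference of −0.42 ± 0.26 (adjusted p = 0.707). The genotypes overlapped for both genes, and without WT mouse 1 the differences were −0.25 and −0.24. Without Het mouse 2 that of Eif4ebp1 was −0.27. The 95% intervals of both crossed 0, that of Akt1 running from −1.17 to 0.12.

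The other repressor, Eif4ebp2, read 9.39 to 10.03 in WT whole muscle and 9.70 to 9.85 in Het, a difference of −0.05 ± 0.30. Rictor, which defines mTORC2, differed by −0.10 ± 0.38 and Tsc1 by 0.26 ± 0.30. Rheb differed by 0.05 ± 0.34 and Rps6kb1 by 0.23 ± 0.22. Without WT mouse 1 the Tsc1 difference was 0.025 and that of Rps6kb1 0.075, and the differences of Eif4ebp2, Rictor and Rheb changed sign when some mouse was left out.

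**Figure D1:**
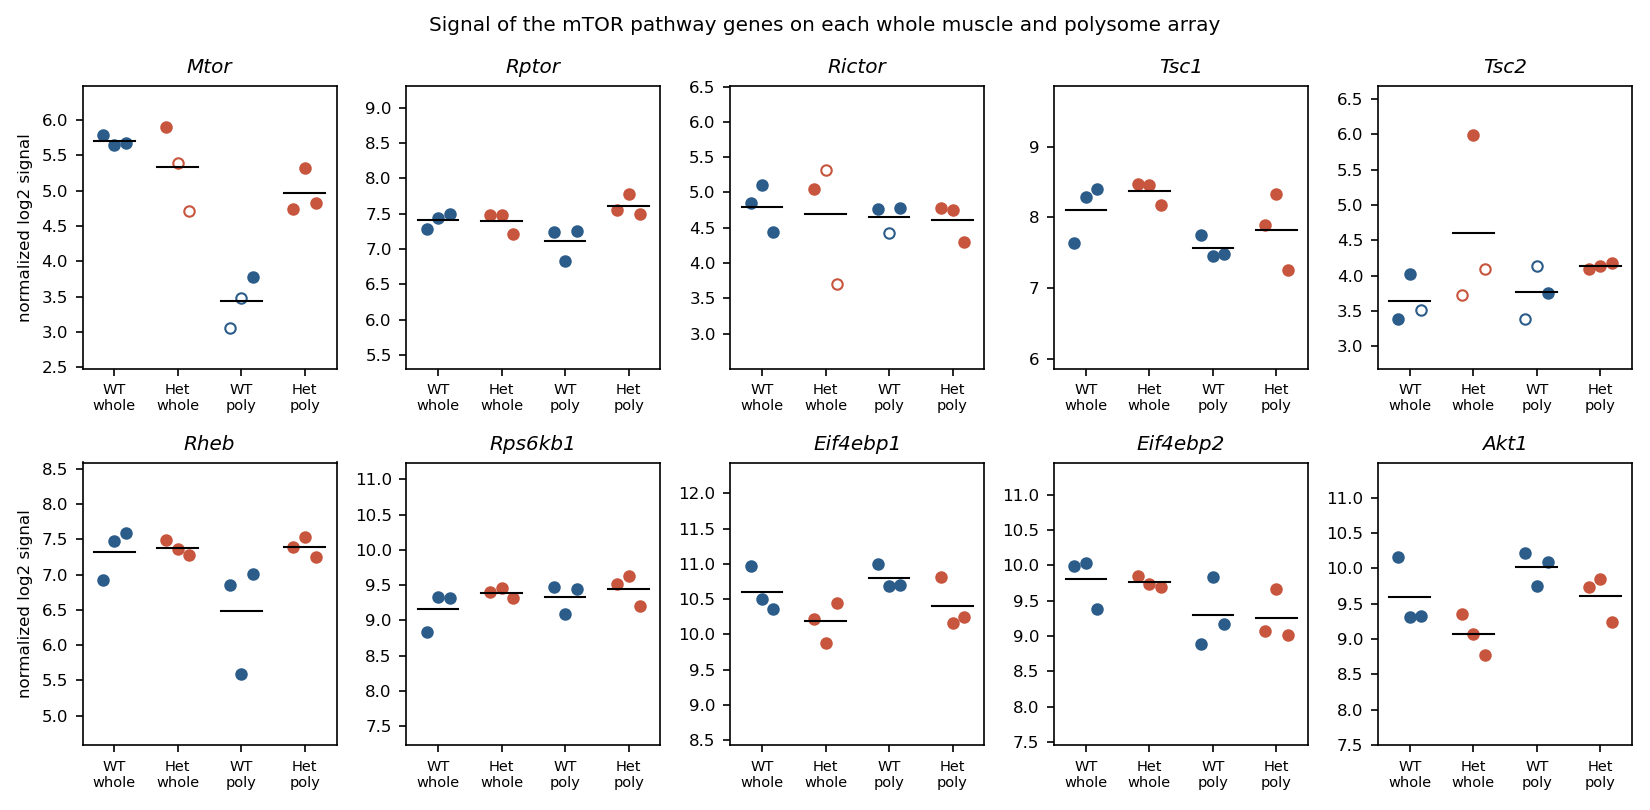
Normalized log2 signal of the leading probe of each gene on the 12 whole muscle and polysome arrays, WT in blue and Het in red, with the mean of each group as a line. Open points were not well above background, and every panel spans the same range of log2 units, so that spreads can be compared but levels between genes cannot. The WT polysome points of Mtor, 3.06 to 3.77, lie below all its other points.

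With the main processing Mtor, the kinase itself, gave the largest polysome difference among the leading probes, from WT polysome signals mostly not well above background. Its leading probe lies at chr4:147931250-147931309 on the plus strand in the mm9 coordinates of the array, and its place among exons and untranslated regions was not analysed here. Whole muscle signals were 5.78, 5.65 and 5.67 in WT mice 1 to 3 and 5.90, 5.39 and 4.71 in Het mice 1 to 3. Polysome signals were 3.06, 3.48 and 3.77 in WT and 4.75, 5.32 and 4.83 in Het. All 3 WT polysome arrays were therefore lower than every other array, and the Het polysome arrays overlapped with the Het whole muscle arrays.

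In polysomes Mtor was 1.53 ± 0.31 log2 units higher in Het, with an unadjusted p of 0.000472 and an adjusted p of 0.193 in limma over all probes. An exact permutation test of the 3 against 3 mice gave p = 0.1, the smallest it can give. The signal was near the floor of the array. It was well above background on 1 of 3 WT polysome, 3 of 3 Het polysome, 3 of 3 WT whole muscle and 1 of 3 Het whole muscle arrays. The probe thus passed the filter through Het polysomes, the higher group here, and through WT whole muscle. The polysome p is therefore not independent of the filter, and the size of 1.53 is not exact. The size of the difference depended on the treatment of background, being 0.47 after a normexp correction with an offset of 50 and 0.44 in the authors' processed table. With each mouse left out in turn it stayed between 1.33 and 1.69, and without the WT polysome 2 array it was 1.56. Within the 2 slides that hold the arrays it was 1.48 and 1.31. These values compare 1 array of one genotype with 2 of the other and are given without a test. The other Mtor probe, untested, was well above background on 0 of 3 WT polysome and 2 of 3 Het polysome arrays. Its polysome signals overlapped between the genotypes, at 1.732 to 3.685 in WT and 1.874 to 3.993 in Het.

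The mTORC1 scaffold Rptor and the activator Rheb reached an unadjusted p under 0.05 in polysomes but passed neither the adjusted p nor the study's threshold. Rptor signals were 7.24, 6.83 and 7.26 in WT polysomes and 7.55, 7.79 and 7.50 in Het polysomes, a difference of 0.50 ± 0.20 (unadjusted p = 0.0311, adjusted p = 0.298). The lowest Het array was above the highest WT array. In whole muscle the Rptor signal averaged 7.40 in both genotypes, and the difference of −0.01 had an interval from −0.45 to 0.44.

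Rheb signals were 6.85, 5.59 and 7.01 in WT polysomes and 7.39, 7.53 and 7.25 in Het polysomes, a difference of 0.90 ± 0.34 (unadjusted p = 0.0235, adjusted p = 0.283). The groups did not overlap, but the WT mean rested on the low value of the WT polysome 2 array, and without that array the difference was 0.46. A second Rheb probe, which shares most of its bases with the first, gave 0.88 with overlapping groups, an interval from −0.10 to 1.86 and an unadjusted p of 0.0729 in limma, and 0.26 without that array.

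In polysomes none of the 12 member probes passed the adjusted p, as was true of 0% of all probes, and the methods' t-test gave none either. The study's threshold was passed by 2 of the 12, both higher in Het, where 5.75% of all probes passed. They were the leading probe of Mtor and a second probe of Rps6kb1. An unadjusted p under 0.05 was reached by 4 of 12 against 15.2% of all, the others being Rptor and the leading Rheb probe. By the methods' t-test 1 of 12 passed the study's threshold, against 2.17% of all, and 2 of 12 an unadjusted p of 0.05, against 8.95%. The groups did not overlap for 4 of the 12 probes, the leading ones of Mtor, Rptor and Rheb and the second of Rps6kb1, and 21.8% of all probes behaved so. The median of the 10 leading probes was 0.19, beside 0.05 for all probes.

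S6 kinase 1 (Rps6kb1) had probes that disagreed. Its leading probe (mm9 chr11:86316064-86316123, minus strand) read 9.48, 9.09 and 9.45 in WT polysomes and 9.51, 9.63 and 9.21 in Het polysomes, and differed by 0.11 ± 0.22. The second probe (mm9 chr11:86312749-86312808, minus strand) read 5.17, 1.69 and 5.35 in WT and 5.78, 6.35 and 5.35 in Het, and differed by 1.76 ± 0.76. The low WT value came from the WT polysome 2 array, on which that probe was not well above background. Without that array the difference was 0.57, under the study's threshold.

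The remaining polysome differences had 95% intervals that crossed 0. The inhibitors Tsc1 and Tsc2 differed by 0.26 ± 0.30 and 0.37 ± 0.49, and the mTORC2 subunit Rictor by −0.05 ± 0.38. The Tsc2 probe was well above background on 1 of 3 WT polysome and 3 of 3 Het polysome arrays. It passed the filter only through Het polysomes, so its difference is not independent of the filter. Akt1 differed by −0.41 ± 0.29. The translational repressors Eif4ebp1 and Eif4ebp2 differed by −0.39 ± 0.26 and −0.05 ± 0.30, with intervals of −0.96 to 0.18 and −0.70 to 0.61. With each mouse left out in turn, Tsc1 ranged from 0.009 (without Het mouse 2) to 0.55 (without Het mouse 3), Tsc2 from 0.18 (without WT mouse 1) to 0.57 (without WT mouse 2), Akt1 from −0.54 (without WT mouse 2) to −0.23 (without Het mouse 3) and Eif4ebp1 from −0.59 (without Het mouse 1) to −0.27 (without Het mouse 2). Rictor, Eif4ebp2 and the leading Rps6kb1 probe changed sign when some mouse was left out.

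**Figure D2:**
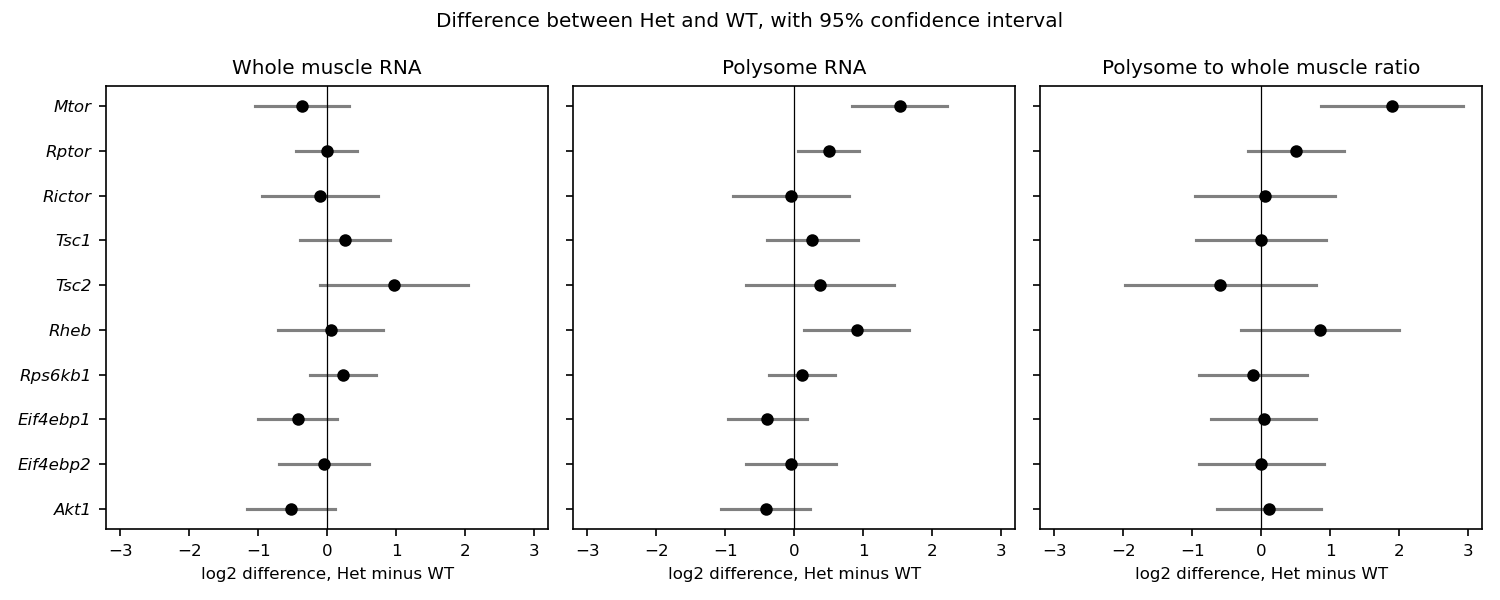
Het minus WT difference of each gene's leading probe, in log2 units, in whole muscle, in polysomes and in the polysome to whole muscle ratio, with 95% confidence intervals from limma. The polysome intervals of Mtor, Rptor and Rheb and the ratio interval of Mtor lie above 0, and all whole muscle intervals cross it.

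The loading of an mRNA was measured as the polysome minus whole muscle signal of the same mouse. For Mtor it was −2.72, −2.17 and −1.90 in WT mice 1 to 3 and −1.16, −0.07 and 0.12 in Het mice 1 to 3. The genotypes did not overlap. The mean was −2.26 in WT and −0.37 in Het, a difference of 1.89 ± 0.44 with an unadjusted p of 0.00324 and an adjusted p of 0.112 in limma, and an exact permutation p of 0.1. The probe passed the filter only through Het polysomes and WT whole muscle, and high values in either group raise this difference. Its p is therefore not independent of the filter, and its size is not exact. Only 2 of the 6 mice, WT mouse 3 and Het mouse 1, had both arrays well above background for this probe, and their ratios differed by 0.74. Each mouse left out in turn gave 1.65 to 2.25, and the background treatments 0.64 (normexp) and 0.66 (authors' table). The ratios of the other, untested Mtor probe overlapped, at −1.615 to 0.447 in WT and 0.053 to 2.151 in Het.

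Array brightness moved with this result. The polysome array was brighter than the whole muscle array by 1.16 to 2.98 log2 units in the Het mice and by −1.46 to 0.64 in the WT mice, so that brightness and genotype cannot be told apart within the ratios. With brightness as a term the Mtor difference was 0.93 with an unadjusted p of 0.243. Cell type markers were compared as well. Of 7 marker lists, 3 had polysome means that did not overlap between the genotypes, where 21.8% of all single probes did not overlap. The mean of 5 of 5 blood cell markers was 8.63 to 9.64 in WT polysomes and 7.85 to 8.31 in Het polysomes, that of 4 of 4 fibroblast markers 11.29 to 11.67 and 10.97 to 11.26, and that of the 7 skeletal muscle markers 15.60 to 15.90 and 16.12 to 16.18. Singly, Col3a1 was the only fibroblast marker and Acta1 the only muscle marker that did not overlap, and the blood markers Hbb-b1 and Slc4a1 overlapped. The other 4 lists overlapped, the 4 of 5 immune markers at 7.38 to 9.14 and 6.91 to 7.67 among them, and no marker was at 0. Their part in the result was not tested.

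Rptor loading was −0.04, −0.61 and −0.24 in WT and 0.06, 0.31 and 0.28 in Het, negative in every WT mouse and positive in every Het mouse, and differed by 0.51 ± 0.30 (unadjusted p = 0.13, adjusted p = 0.424). Rheb loading was −0.08, −1.88 and −0.57 in WT and −0.10, 0.17 and −0.04 in Het. The Rheb groups overlapped, and the difference of 0.85 ± 0.48 fell to 0.34 without WT mouse 2.

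No member probe passed the adjusted p for loading, where 0% of all probes did, nor did any by the methods' t-test. Mtor alone passed the study's threshold, 1 of 12 probes against 13.9% of all, and also an unadjusted p of 0.05, which 16.9% of all probes met. The methods' t-test at the study's threshold called 1 of 12 as well, against 8.57% of all. The groups did not overlap for 2 of the 12 probes, the leading ones of Mtor and Rptor, against 25.3% of all probes. The median difference of the 10 genes was 0.05, beside 0.17 for all probes.

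**Figure D3:**
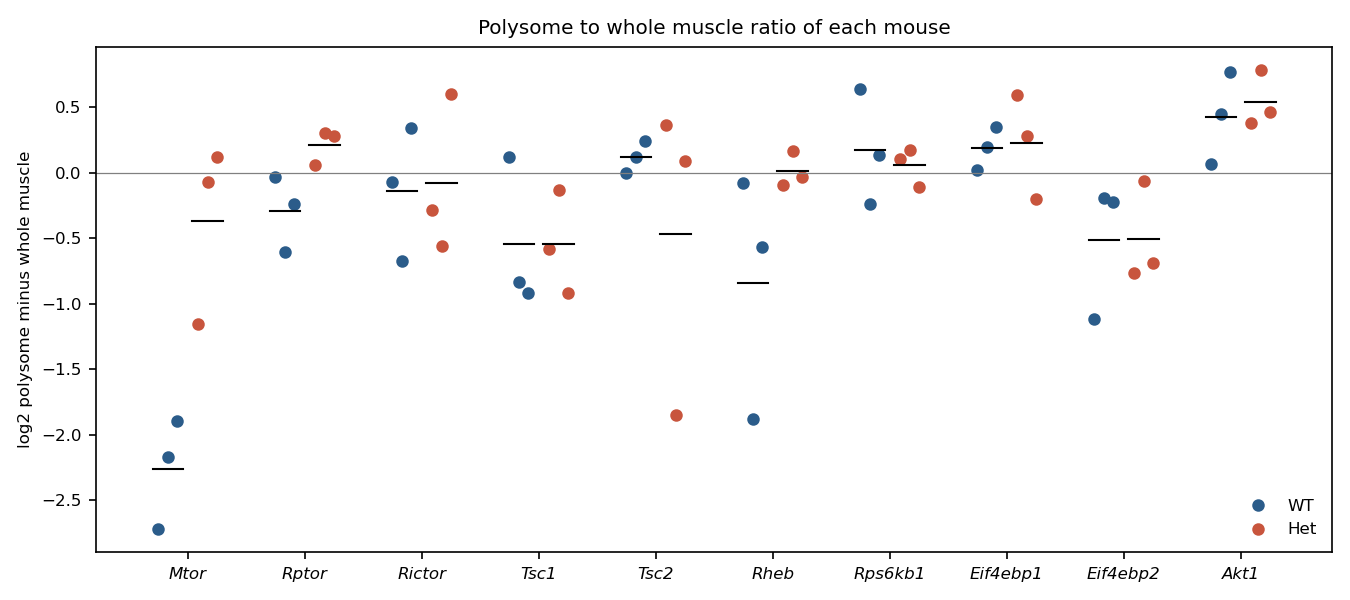
Polysome minus whole muscle log2 signal of each mouse for the 10 genes, WT in blue and Het in red, with group means as lines. The 3 WT points of Mtor, −2.72 to −1.90, lie below all 3 Het points, and the 2 genotypes interleave for most other genes.

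Within WT mice Mtor was the only gene of the set whose mRNA was under-represented on polysomes by the adjusted p (−2.26 ± 0.31, adjusted p = 0.00721 in limma), 1 of 12 member probes where 21.0% of all probes were called in either direction. The size of this difference depended on the treatment of background, at −0.78 with normexp and −0.79 in the authors' table. The probe was well above background on 1 of 3 WT polysome arrays and 3 of 3 WT whole muscle arrays, a group through which it passed the filter. It lost that call with brightness as a term (−1.78, adjusted p = 0.138) and in the methods' t-test (adjusted p = 0.222). Within Het mice none of the 12 was called, where 7.33% of all probes were, and 1 of 12 had an unadjusted p under 0.05 against 29.2% of all. That was Akt1, which lay higher on polysomes in all 6 mice, by 0.06 to 0.77 in WT and 0.38 to 0.78 in Het. In WT 4 of the 12 had an unadjusted p under 0.05 in limma, as had 7542 of all 19814 probes. The methods' t-test called none in Het at the adjusted p. Eif4ebp2 lay lower on polysomes in all 6 mice, with means of −0.51 in both genotypes, and its Het minus WT difference of 0.00 had an interval from −0.91 to 0.91. The share of all probes on 1 side of 0 in all 6 mice was not counted. Tsc1 had means of −0.55 in WT and −0.54 in Het. Whole muscle RNA was extracted by another method than fraction RNA, and the part of extraction in these differences was not tested.

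The monosome arrays, with 2 mice per genotype, were placed on a common scale with the other 12, on which member signals shifted by at most 0.30. Averaged over genotypes, 3 of the 12 member probes differed between polysomes and monosomes at an adjusted p under 0.05 in limma, 1 higher and 2 lower on polysomes, where 26.0% of all probes did. Eif4ebp2 (probe at mm9 chr10:60895379-60895438, minus strand) was lower on polysomes by 2.07 ± 0.25 (4.20-fold, adjusted p = 0.000368). Its monosome signals were 10.90 and 11.49 in WT mice 1 and 2 and 10.69 and 11.10 in Het mice 1 and 3, and the same mice read 8.58, 9.54, 8.78 and 8.71 on polysomes. Each monosome array was above every polysome array.

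Tsc1 (mm9 chr2:28546610-28546669, plus strand), too, was lower on polysomes, by 1.38 ± 0.23 (adjusted p = 0.00169). Its signals were 8.62, 8.55, 8.98 and 8.99 on monosomes and 7.46, 7.16, 7.59 and 6.97 on polysomes in these 4 mice. Rptor (mm9 chr11:119760596-119760655, plus strand) went the other way, higher on polysomes by 1.25 ± 0.18 (adjusted p = 0.000759), with 5.48, 5.56, 6.39 and 5.86 on monosomes and 6.96, 6.55, 7.26 and 7.21 on polysomes. All 4 mice showed the same sign for each of these 3 genes. With the mouse as a block, Eif4ebp2 and Tsc1 had adjusted p of 0.048 and 0.0491 and Rptor one of 0.0513.

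Eif4ebp1, the other repressor in the set, differed between the fractions by −0.53 ± 0.21 (adjusted p = 0.0728), and Akt1 by −0.16 ± 0.24. Mtor gave −3.90 and 0.03 in Het mice 1 and 3, and in WT mice 1 and 2 it was well above background in neither fraction, so that no difference is given. The median over the 10 genes was −0.35, beside 0.20 for all probes, and it includes the Mtor value, which rests in part on signals not well above background.

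**Figure D4:**
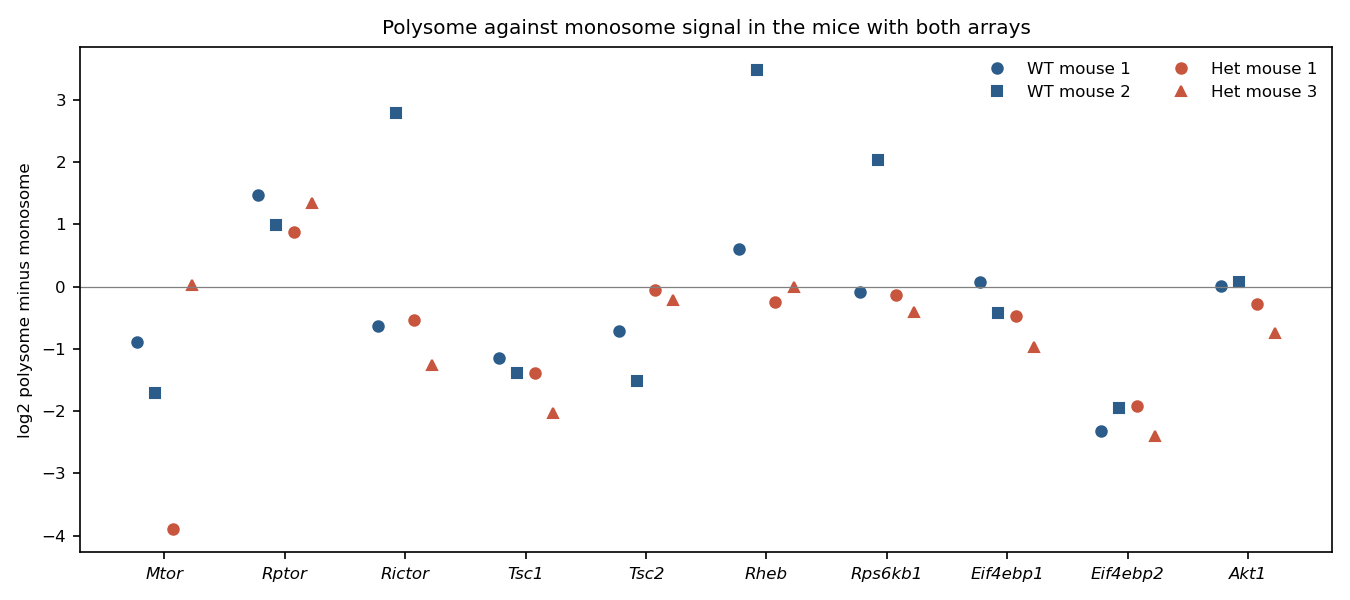
Polysome minus monosome log2 signal of the 10 genes in the 4 mice with both arrays, WT in blue and Het in red, with a marker shape for each mouse number, the WT points of Mtor being differences of signals not well above background. Eif4ebp2 lies between −2.39 and −1.91 and Tsc1 between −2.02 and −1.15, Rptor between 0.87 and 1.47, and WT mouse 2 stands apart for Rictor, Rheb and Rps6kb1.

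Between genotypes, no member probe passed the adjusted p on monosomes in limma, where 0.499% of all probes did, and 6 of 12 had an unadjusted p under 0.05, as had 33.0% of all probes. The methods' t-test was not run with 2 mice per genotype. Rheb showed the largest difference, 3.25 ± 0.90 (adjusted p = 0.087), from signals of 5.96 and 1.87 in WT and 7.35 and 6.97 in Het. The value of 1.87 came from WT monosome 2, on which the probe was not well above background, and without the WT polysome 2 and WT monosome 2 arrays the difference was 1.22. Mtor was not well above background on either WT monosome array and read 8.42 and 4.58 in Het, so that it was at least 3.89-fold higher in Het by the mean of the 2 (adjusted p = 0.126). The bound is against the dimmest probes well above background and rested on Het mouse 1, without which the fitted difference was 0.17.

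A list of 72 other genes of the pathway, drawn up by role, was set beside the 10 members. All 72 were on the array and 69 had a tested probe. At the study's threshold 0 were higher and 1 lower in Het whole muscle, 6 higher and 0 lower in polysomes, and 7 higher and 1 lower in loading, where 5.63%, 5.75% and 13.9% of all probes passed in either direction. At the adjusted p none was called in limma in any of the 3, and 4, 15 and 11 of the 69 had an unadjusted p under 0.05, against 8.45%, 15.2% and 16.9% of all probes. The list's median was 0.03, 0.24 and 0.29 in the 3 comparisons, beside −0.03, 0.05 and 0.17 for all probes.

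The 6 that passed the threshold in polysomes came from 5 of the 7 roles, with Fnip1 and Rraga in the same one. Fnip1, a folliculin partner at the lysosome, was higher by 1.64, and Rraga, a Rag GTPase that carries mTORC1 to the lysosome, by 1.26. Sgk1, a kinase downstream of mTORC2, was higher by 1.19, and Sec13, a subunit of the amino acid sensing GATOR complex that also coats secretory vesicles, by 1.14. Ddit4l, an inhibitor of mTORC1 signalling, was higher by 1.06 and Lpin1, a phosphatidic acid phosphatase that mTORC1 phosphorylates, by 1.04.

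The calls depended on the mice included, which was examined after the values were seen. Without the WT polysome 2 array Fnip1 was higher by 0.54, Rraga by 0.55 and Sgk1 by 0.99, none past the threshold, and without WT mouse 1 Sec13 was higher by 0.73. Each of the 6 lost its call when some mouse was left out.

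Among the 8 genes past the threshold in loading, the largest differences were those of Sec13 (1.74) and Lpin1 (1.61), together with Prkag3 (1.44), a muscle subunit of AMP-activated kinase, Rraga (1.43) and Pik3ca (1.30), a catalytic subunit of phosphoinositide 3-kinase. Slc7a5, a leucine transporter, was the only one of the 8 that was lower, at −1.59. Rraga came to 0.76 without WT mouse 2 and Prkag3 to 0.83 without WT mouse 1, neither past the threshold. Sec13, Lpin1, Slc7a5 and Rragc, another Rag GTPase (1.22, named after its values were seen), passed it with each mouse left out, 4 of the 8. In these runs 10.8 to 15.4% of all probes passed, and the share passing in every run was not counted. Brightness was not entered as a term for these genes. In whole muscle the only gene past the threshold was Akt1s1, an mTORC1 inhibitor that Akt phosphorylates, at −1.04. It lost its call when some mouse was left out.

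**Figure D5:**
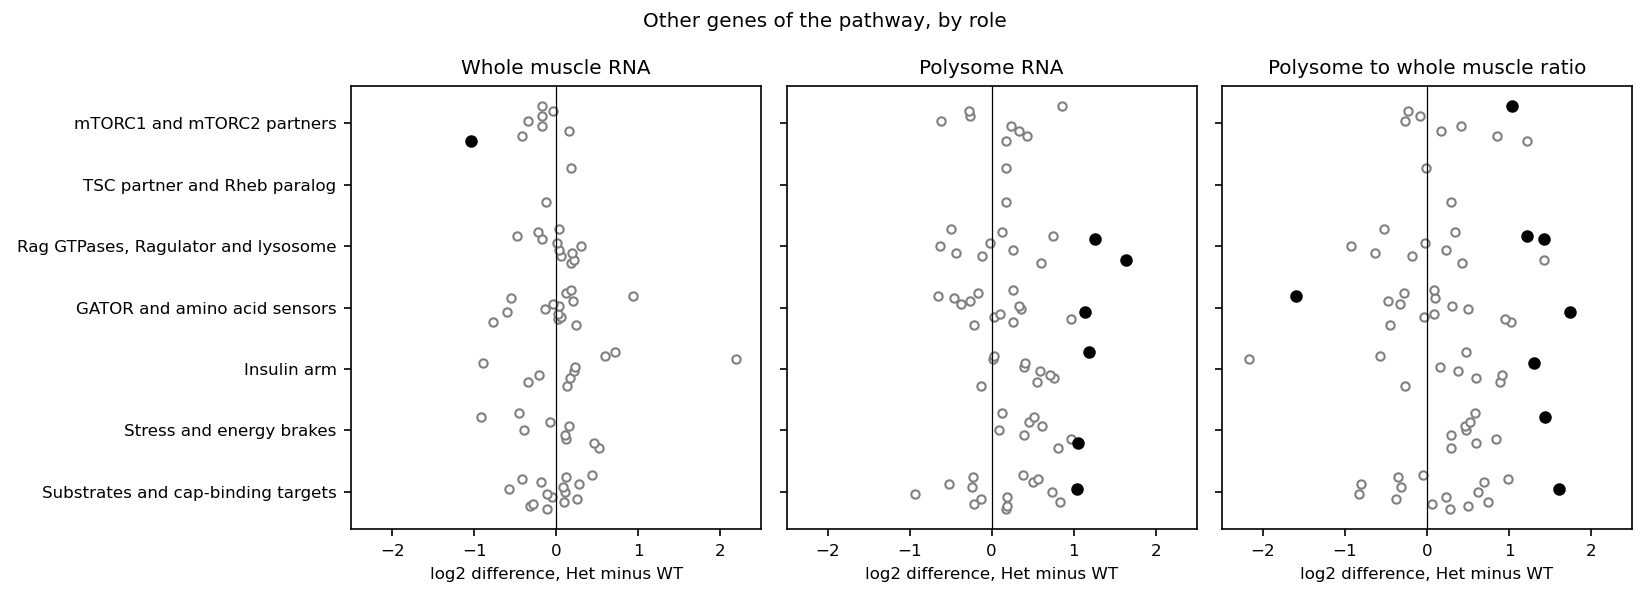
Het minus WT log2 difference of the 69 tested pathway genes, by role, in whole muscle, polysomes and the polysome to whole muscle ratio. Filled points passed the study's threshold, 1 gene in whole muscle, 6 in polysomes and 8 in loading.

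Over the 12 arrays, the probes of other genes whose pattern was most like that of Mtor belonged to Mto1 (Pearson r = 0.97), Slc44a1 (r = 0.97) and Lyrm5 (r = 0.97), out of 11478 probes well above background on every array. For Eif4ebp1 they belonged to Cdk4 (r = 0.85), Srm (r = 0.84) and Bin3 (r = 0.83). These correlations are descriptions, since the arrays share mice, slides and scaling.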

How the data were processed

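The data were 16 Agilent 1-colour arrays scanned and extracted with Agilent Feature Extraction 11.0.1.1 per the file headers. Deposited processed signals, in intensity units already corrected for background by the authors' scanner software, were converted to log2 and spots of a probe averaged after outlier spots were left out. The authors also deposited a log2 table, quantile-normalized and ordered within each array as the raw median signals (rounded Spearman correlation of 1), which served as an alternative. The 12 polysome and whole muscle arrays were quantile-normalized together (all 16 for monosomes). Genotype was tested with limma 3.58.1 (R 4.3.3). Benjamini-Hochberg adjustment covered the 19814 probes tested, or 20251 with monosomes. Loading was fitted on the ratios of the 6 mice. Arrays with the same number came from the same mouse by the design text, and deviations of polysome and whole muscle arrays correlated at 0.058 to 0.485. The step was tested on simulated data.

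The 10 genes, the 72 pathway genes and the marker lists were chosen with earlier results of these data known. Named pathway genes are the 6 largest differences past the study's threshold per comparison, and pattern neighbours the 3 highest correlations. Scaling, background correction, the filter, slide, brightness, the test and each mouse were varied. Mice are the replicates, and with 2 or 3 per group the number of arrays limits the precision. No other position than the arrays' mm9 coordinates was used for probes. Start sites came from RefSeq (GRCm38.p6), in which 9 of 10 genes matched by symbol.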

Additional observations from a re-analysis of the deposited data

Results flagged for a closer look

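The polysome to whole muscle ratio of Rptor was below 0 in all 3 WT mice and above 0 in all 3 Het mice, a difference of 0.51 ± 0.30 log2 units. It was listed because every mouse of a genotype moved one way and every mouse of the other genotype the opposite way, and its test in limma gave an adjusted p of 0.424. The ratios nearest 0 were −0.04 in WT mouse 1 and 0.06 in Het mouse 1. In loading the genotypes did not overlap for 25.3% of all probes, and the share with opposite signs was not counted. The lowest and highest values of the Rptor difference over the alternatives were 0.25 and 0.66.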

How the results depend on the processing

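The number of member probes past the study's threshold depended on the processing. In polysomes it was 2, and became 0 with normexp, with only probes well above background on every array, in the authors' table and within slide 1. It became 1 with no filter on dim probes, with slide or brightness as a term, in the methods' t-test, within slide 2, and without the WT polysome 2 and WT monosome 2 arrays (the last chosen after seeing the data). In loading it was 1, and became 0 with normexp, the stricter filter, brightness as a term, the authors' table and within either slide. Within a slide each genotype had 1 or 2 arrays per RNA, and since 0 of the 6 mice had both arrays on 1 slide, loading there set arrays of different mice against each other. Leaving out 1 mouse gave 0 to 1 in whole muscle (1 without Het mouse 1, Tsc2), where 2.78 to 10.9% of all probes passed. In polysomes it gave 1 to 4 (4 without WT mouse 1 or 3), where 3.02 to 10.3% of all passed, 9.3% and 10.3% in those runs. In loading it gave 1 to 3 (3 without WT mouse 1), where 10.8 to 15.4% of all passed, 13% in that run. At the adjusted p, the WT polysome count of 1 became 2 with normexp and 0 with the stricter filter, brightness as a term, the methods' t-test and within either slide. The stricter filter leaves Mtor untested. The monosome count of 0 became 1 with normexp and in the authors' table and 0 to 5 without 1 mouse (5 without WT mouse 1, which leaves only WT monosome 2). The polysome minus monosome count of 3 ranged from 3 to 8 (8 without WT mouse 1). No share of all probes is set beside the other counts of this paragraph, so they are not a result about the members alone. The cause was not tested for these changes, except that the normexp offset of 50 adds to every signal and narrows differences of dim probes.

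Without the replicate block, Mtor loading kept its difference of 1.89 (adjusted p = 0.229) and the member counts for loading and for polysome minus whole muscle within each genotype did not change. With the mouse as a replicate block over the 4 mice with both fractions, 2 of the 3 polysome minus monosome calls passed (Rptor 1.17, adjusted p = 0.0513).

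Of the single gene values, 483 kept direction and call, 13 lost and 8 gained a call, and 69 changed sign. None of the 69 had passed a threshold. Within slide 2, they were in whole muscle for Mtor 0.19, Rptor 0.13, Rictor 0.084 and in polysomes for Rps6kb1 −0.028, Eif4ebp2 0.17 and in loading for Rictor −0.33, Tsc1 −0.19, Tsc2 0.37, Akt1 −0.17. With 75th percentile scaling, they were in whole muscle for Rptor 0.026, Eif4ebp2 0.056 and in polysomes for Eif4ebp2 0.036 and in loading for Rictor −0.059, Eif4ebp2 −0.02. With slide as a term, they were in whole muscle for Rptor 0.018, Eif4ebp2 0.023 and in loading for Rictor −0.11, Eif4ebp2 −0.14, Akt1 −0.012. With brightness as a term, they were in whole muscle for Rptor 0.12, Rictor 0.18, Eif4ebp2 0.009, Akt1 0.20 and in loading for Rictor −0.18, Tsc2 0.58, Eif4ebp1 −0.086, Eif4ebp2 −0.82, Akt1 −0.55. With normexp, they were in whole muscle for Rictor 0.013 and in loading for Rictor −0.041. Within slide 1, they were in whole muscle for Rictor 0.068, Tsc1 −0.079, Rheb −0.26, Eif4ebp2 0.33 and in polysomes for Rictor 0.18 and in loading for Rps6kb1 0.15, Eif4ebp2 −0.61. Without the WT polysome 2 and WT monosome 2 arrays, they were in polysomes for Rps6kb1 −0.01, Eif4ebp2 0.23. In the authors' table, they were in loading for Tsc1 −0.029. Without 1 mouse, the ranges that crossed 0 were in whole muscle Rptor −0.07 to 0.081, Rictor −0.42 to 0.40, Rheb −0.15 to 0.18, Eif4ebp2 −0.26 to 0.069, in polysomes Rictor −0.17 to 0.11, Rps6kb1 −0.01 to 0.24, Eif4ebp2 −0.25 to 0.23, and in loading Rictor −0.29 to 0.30, Tsc1 −0.20 to 0.34, Tsc2 −0.99 to 0.10, Rps6kb1 −0.33 to 0.11, Eif4ebp1 −0.14 to 0.25, Eif4ebp2 −0.31 to 0.16, Akt1 −0.067 to 0.29.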
